A study of Mus musculus with 5 samples.

Results

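The genes followed here in the kidney cortex of Fnip1 null mice are 7 genes whose loss gives cystic kidneys in humans or mice: Pkd1, Pkd2, Pkhd1, Bicc1, Glis2, Nek8 and Ganab. They were taken by gene symbol from the 24421 symbols counted, with earlier results of these data known, and all 7 were among the 13874 genes tested. Transcripts were sequenced from flash-frozen kidney cortex, with 1 library for each of 3 Fnip1-/- mice (8637, 9210 and 9121) and 2 Fnip1+/+ mice (9055 and 9056), all on the C57BL6J background. The deposited file of mouse 9210 bears a different number from its label, which was followed here, and the study describes more wildtype mice for this experiment than were analysed here. The null allele came from random chemical (ENU) mutagenesis and is carried in every cell of the animal, so the tubules, vessels and immune cells of these kidneys all lack Fnip1. The mice were adults. The age of each mouse is not in the labels, and the labels give wildtype as the genotype of the controls, although the study's text also calls control mice heterozygous. Fnip1 encodes a partner of folliculin, the protein lost in Birt-Hogg-Dubé syndrome, and the comparison asks whether genes of cystic kidney disease are expressed differently when this partner is missing.

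Renal cysts are fluid-filled sacs that grow out of tubules, and most inherited forms arise from genes whose proteins sit in or serve the primary cilium of the tubule cell. Pkd1 and Pkd2 encode polycystin-1, a large receptor-like membrane protein, and polycystin-2, a cation channel, which form a complex in the cilium and are the genes of dominant polycystic kidney disease. Pkhd1 encodes fibrocystin, the ciliary membrane protein lost in recessive polycystic kidney disease. Bicc1 is an RNA-binding protein, Glis2 a zinc finger transcription factor and Nek8 a kinase of the inversin compartment of the cilium, and loss of the latter pair gives nephronophthisis. Ganab is the catalytic subunit of glucosidase II, the enzyme of the endoplasmic reticulum that trims sugars from new glycoproteins, polycystin-1 among them.

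The libraries held 15799114 to 19132145 counts on genes, so that 3 counts in a mouse corresponded to 0.158 to 0.186 normalized CPM (the count scaled to a common library size by TMM). Every one of the 7 genes lay far above this floor, and counting error alone was between 1.31% (Pkd2) and 5.84% (Nek8) of a value. Fnip1 itself stood at 21.0, 16.9 and 16 normalized CPM in Fnip1 null mice 8637, 9210 and 9121 and at 51.8 and 48.7 in wildtype mice 9055 and 9056, counted over the whole gene. The cortex markers of the proximal tubule were abundant in all mice, with a summed level of 7756 to 11370 normalized CPM over 6 genes. Mouse 9121 stood apart: it had 5954 counts of Xist and 0 of Ddx3y, whereas the other mice had 3 to 24 counts of Xist and 720 to 885 of Ddx3y, and the labels give no sex. Leaving out mouse 8637 took the number of genes called from 102 to 2807, and values without these mice are given where they touch a result.

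None of the 7 genes was called at an FDR of 5% by edgeR's quasi-likelihood test, where 102 of all genes tested (0.735%) were called, 0.555% higher and 0.18% lower in null mice. With the added limit of a 2-fold change the count was 0 of 7 against 0.533% of all genes. The count was also 0 of 7 by edgeR's exact test, which called 9.82% of all genes, by its likelihood ratio test with 10.6% and by DESeq2 with 10.2%. Pkhd1 and Ganab had an unadjusted p under 0.05, which is 2 of 7 against 25.1% of all genes. The same pair did so with DESeq2, and 0 did so by the exact and likelihood ratio tests. Pkhd1 and Ganab were also the members for which all Fnip1 null mice lay below both wildtype mice, an ordering shared by 23% of all genes, while 0 members lay wholly above, against 22.9% of all genes. The other 5 members overlapped between the genotypes. With 3 against 2 mice the smallest p an exact permutation test can give is 0.1, so single genes rest on the fit across all genes. These p-values measure the spread between 5 separate mice. By the Xist and Ddx3y counts given above, null mouse 9121 reads as female and the other null mice and both wildtype mice as male. The fit held no term for sex, so sex is part of the null mean and spread.

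**Figure D1:**
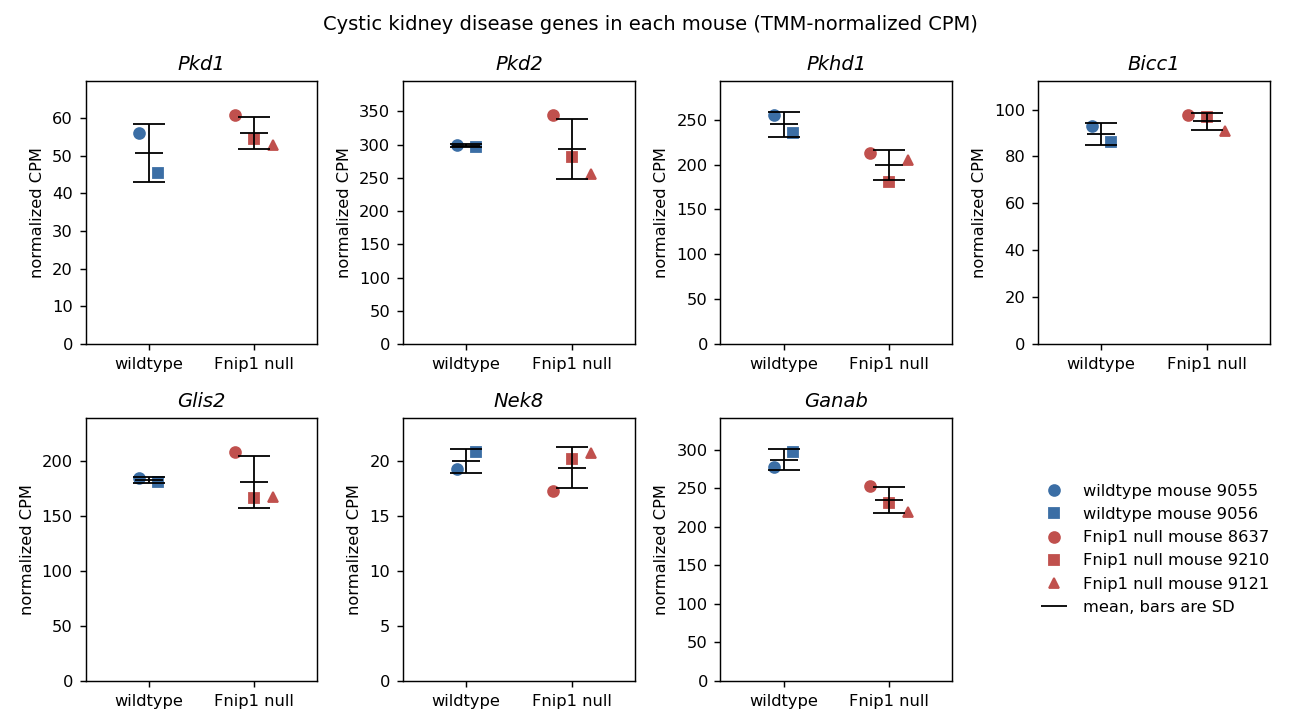
Normalized CPM of each of the 7 cystic kidney disease genes in the 2 wildtype mice and the 3 Fnip1 null mice, on axes that start at 0, with 1 point per mouse and bars for the mean and SD of each genotype. The Pkhd1 and Ganab points of all null mice lie below both wildtype points, and for the other 5 genes the genotypes overlap.

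Pkd1 (ENSMUSG00000032855, chr17:24549834-24596508, plus strand of GRCm38, 46 exons in its longest transcript) was measured at 60.6, 54.5 and 52.8 normalized CPM in Fnip1 null mice 8637, 9210 and 9121 and at 56.0 and 45.3 in wildtype mice 9055 and 9056. The genotypes overlapped, and the lowest value belonged to a wildtype mouse. The mean was 56.0 ± 4.13 (SD, n = 3) in null and 50.7 ± 7.59 (n = 2) in wildtype mice, a log2 fold change of 0.14 with a standard error of 0.12 and a 95% interval of -0.16 to 0.44 (quasi-likelihood test, adjusted p = 0.499). The wildtype pair differed from each other by 1.24-fold, more than the means of the genotypes did, and without wildtype mouse 9056 the log2 fold change was -0.0053. The exons of Pkd1 share 693 bases, 3.98% of their length, with exons of the neighbouring Tsc2 on the opposite strand, and the strand setting of the counting is not given in the sources used here.

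Pkd2 (ENSMUSG00000034462, chr5:104459450-104505819, plus strand, 15 exons) had 344, 281 and 256.5 normalized CPM in null mice 8637, 9210 and 9121 against 299.8 and 297 in the wildtype mice. The wildtype pair lay within 1.01-fold of each other and inside the range of the null mice. The mean of 294 ± 45.2 (SD, n = 3) in null and 298 ± 1.94 (n = 2) in wildtype mice gave a log2 fold change of -0.02, with a 95% interval of -0.37 to 0.33 (quasi-likelihood test, adjusted p = 0.937). Within each mouse, Pkd2 had 4.86 to 6.56 times the CPM of Pkd1, and the null ratios (5.67, 5.15 and 4.86) overlapped the wildtype ratios (5.35 and 6.56). This ratio is on the scale of counts and says nothing of molecules, since the transcripts differ in length.

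Pkhd1 (ENSMUSG00000043760, chr1:20057779-20618064, minus strand, 67 exons over 560 kb) was lower in every Fnip1 null mouse than in either wildtype mouse. Its promoter window, from 250 bases before to 50 after the start annotated by RefSeq on GRCm38.p6, had a GC content of 43.3%. Those of the other 4 members with a window (Bicc1 and Glis2 had none) had 54.7% to 66.7%, and 17.3% of all 32851 windows were lower than that of Pkhd1.

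The level of Pkhd1 was 213, 181 and 204.5 normalized CPM in null mice 8637, 9210 and 9121, against 255 and 235 in wildtype mice 9055 and 9056. The highest null mouse was thus below the lower wildtype mouse. The mean of 199 ± 16.6 (SD, n = 3) in null mice was 0.814 times that in wildtype mice, 245 ± 13.8 (n = 2), with a 95% interval of 0.676 to 0.979. The log2 fold change of -0.30 (standard error 0.11) had an unadjusted p of 0.0342 and an adjusted p of 0.172 in the quasi-likelihood test, and did not pass. Its sign was negative in all 15 alternative fits, between -0.36 and -0.14, with adjusted p from 0.06 to 0.58. The value nearest to 0 came from scaling by library size alone, which moved the median of all genes up by 0.16, and relative to that median Pkhd1 stood at -0.30 in this fit too. Without mouse 9121 the log2 fold change was -0.32 (adjusted p = 0.24), and without mouse 8637 it was -0.35 (adjusted p = 0.06).

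These values are averages over whole cortex, where fewer cells of a type and less RNA per cell cannot be told apart. Summed over 6 proximal tubule markers the level was 7756 to 10020 normalized CPM in null and 10550 to 11370 in wildtype mice. Much of this sum was Slc34a1, at 3963 to 6346 over the 5 mice, and 4 of the 6 log2 fold changes were negative. The other 2 markers, Slc5a12 (log2 fold change 0.63) and Slc5a2 (0.26), lay above both wildtype mice in every null mouse. Over 5 markers of collecting duct principal cells the summed level was 699 to 996 in null and 542 to 562 in wildtype mice. Over 4 intercalated cell markers it was 356 to 574 against 276 to 303, and both sums were higher in null mice. Of the principal cell markers 4 lay above both wildtype mice in all null mice, against 22.9% of all genes. Avpr2, the vasopressin receptor, lay below in all of them (log2 fold change -0.47), against 23%. Of fat cell markers, Adipoq and Cidec stood high in 9210 and 9121 alone, where the 4 fat genes summed to 59.0 and 23.2 CPM against 2.06 to 3.83 in the other mice. The part of these marker levels in the values of the 7 genes was not tested.

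**Figure D2:**
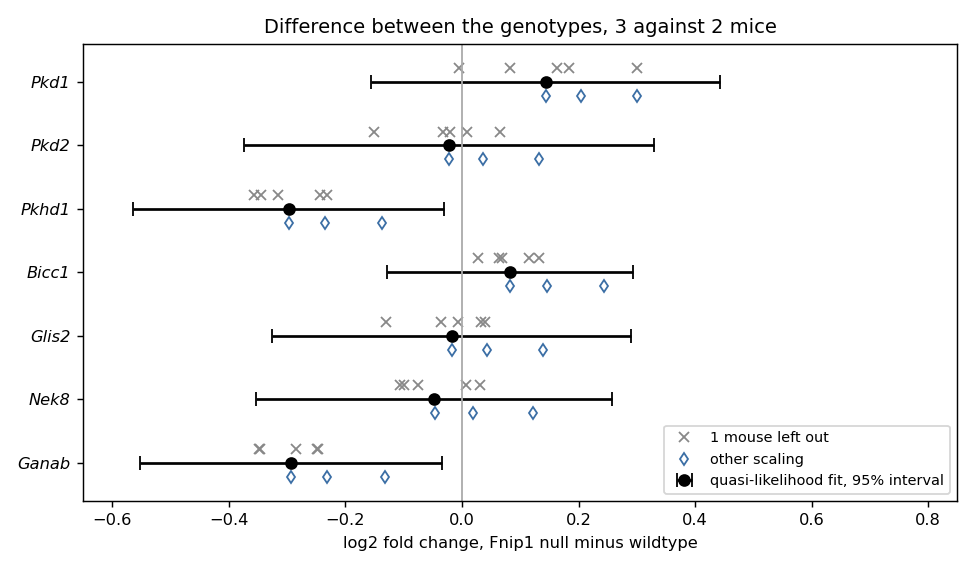
Log2 fold change of each gene, Fnip1 null minus wildtype, from the quasi-likelihood fit on 5 mice (black points, bars are 95% intervals), with the value after leaving out each mouse (grey crosses) and under 3 other scalings (blue diamonds). The intervals of Pkhd1 and Ganab end just below 0 and those of the other 5 genes span it, and crosses or diamonds of Pkd1, Pkd2, Glis2 and Nek8 fall on both sides of 0.

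Among the regulators, Bicc1 (ENSMUSG00000014329, chr10:70922832-71159700, minus strand, 21 exons) was the steadiest of the 7. It had 97.5, 96.7 and 90.7 normalized CPM in null mice 8637, 9210 and 9121 against 93.0 and 86.4 in wildtype mice, so that its highest value was 1.13 times its lowest. Only 7.25% of the genes tested had a smaller SD of log2 CPM over the 5 mice. The means of 95 ± 3.76 (SD, n = 3) and 89.7 ± 4.69 (n = 2) gave a log2 fold change of 0.08, with a 95% interval of -0.13 to 0.29 (quasi-likelihood test, adjusted p = 0.58). The sign was positive in all 15 alternative fits (0.027 to 0.24). The highest of these values came from scaling by library size alone, where Bicc1 stood 0.077 above the median of all genes (0.17). Exons of 4930533K18Rik on the opposite strand cover 349 bases (4.69%) of its exons.

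Glis2 (ENSMUSG00000014303, chr16:4594713-4624924, plus strand, 7 exons) was at 208, 166 and 168 normalized CPM in null mice 8637, 9210 and 9121 and at 185 and 181 in wildtype mice. Mouse 8637 was above and the other null mice were below the wildtype pair. The mean was 181 ± 23.9 (SD, n = 3) in null and 183 ± 2.78 (n = 2) in wildtype mice, and the log2 fold change of -0.02 had a 95% interval of -0.33 to 0.29 (quasi-likelihood test, adjusted p = 0.945). Exons of Pam16 on the opposite strand cover 455 bases, 10.4%, of its exons. Its relative Glis3, loss of which also gives cystic kidneys, was at 114, 79.5 and 78.8 in the null mice in the same order and at 126 and 115 in wildtype mice (log2 fold change -0.41, adjusted p = 0.21, or 0.0112 without mouse 8637). Without mouse 8637 the quasi-likelihood test called 19.9% of all genes, and without mouse 9121 Glis3 did not pass it. The ratio of Glis2 to Glis3, chosen after its values were seen and given as a description, was 2.02 ± 0.16 (SD, n = 3) in null and 1.52 ± 0.0786 (n = 2) in wildtype mice.

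Nek8 (ENSMUSG00000017405, chr11:78166106-78176675, minus strand, 15 exons) was the gene with the fewest counts, at 17.3, 20.1 and 20.7 normalized CPM in null mice 8637, 9210 and 9121 against 19.3 and 20.8 in wildtype mice. Here mouse 8637 was the lowest of the 5, whereas it was the highest for Pkd1, Pkd2, Bicc1 and Glis2. The mean of 19.4 ± 1.86 (SD, n = 3) in null against 20 ± 1.10 (n = 2) in wildtype mice gave a log2 fold change of -0.05, with a 95% interval of -0.35 to 0.26 (quasi-likelihood test, adjusted p = 0.843).

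The partners of Nek8 in the inversin compartment and the other nephronophthisis genes gave 0 calls of 21 tested by the quasi-likelihood test (0.735% of all genes). DESeq2 and the exact and likelihood ratio tests also gave 0, where they called 10.2%, 9.82% and 10.6% of all genes. In the quasi-likelihood test 2 of the 21 had an unadjusted p under 0.05, against 25.1% of all genes. Of the log2 fold changes 15 were negative and 6 positive, with a median of -0.04 beside 0.0031 over all genes, and scaling by library size alone turned this to 7 negative and 14 positive. Without mouse 8637 the quasi-likelihood test called 3 of the 21, where it called 19.9% of all genes. Without mouse 9121 it called 0 of the 21, and 191 of 13980 genes in all. Invs, the inversin that gives the compartment its name, was at 29.0, 22.9 and 20.9 normalized CPM in null mice 8637, 9210 and 9121 and at 29.3 and 36.5 in wildtype mice. The null mice lay below, 8637 by a small margin, and its log2 fold change stood at -0.44 (adjusted p = 0.186, standard error 0.17), or -0.59 without mouse 8637 (adjusted p = 0.0373). Zfp423, a zinc finger protein of the DNA damage response, had a log2 fold change of 1.09 (adjusted p = 0.128, or 0.0483 without mouse 8637) at only 1.09 to 3.11 CPM. Rpgrip1l, of the ciliary transition zone, stood at -0.26 (adjusted p = 0.307). Abundant genes of the list were level between the genotypes within their spread: Nek9, a kinase related to Nek8, at -0.03, and Ift172, of the intraflagellar transport machinery, at -0.04.

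Of 20 paralogs of the 7 genes, 19 were in the files and 13 passed the filter on low counts, while Nek10 and Pkd2l1 had no count in any mouse, which allows up to 0.158 to 0.186 CPM. None of the 13 was called by the quasi-likelihood test (3 with an unadjusted p under 0.05, against 25.1% of all genes), and 1, Nek7, was called by each of DESeq2, the exact test and the likelihood ratio test, which called 10.2%, 9.82% and 10.6% of all genes. Without mouse 8637 the quasi-likelihood test called 4 of the 14 that then passed the filter, against 19.9% of all genes. Without mouse 9121 it called 0 paralogs, and 191 of 13980 genes in all. Of the 13, 10 were negative and 3 positive, with a median log2 fold change of -0.28, or 7 and 6 with a median of -0.12 when scaled by library size alone. Nek7, a mitotic kinase also needed for the NLRP3 inflammasome, was at 101, 89.4 and 87.8 normalized CPM in null mice 8637, 9210 and 9121 and at 131 and 127 in wildtype mice. All null mice lay below the wildtype pair, by -0.48 on the log2 scale (standard error of 0.096), with an adjusted p of 0.0745 by quasi-likelihood, 0.0113 without mouse 8637 and 0.0184 by the exact test. Nek4 (-0.31, adjusted p = 0.186, or 0.0368 without mouse 8637) and Nek6 (-0.28, adjusted p = 0.188), further kinases of this family, also lay below in every null mouse. Nek8, Nek9 and the other Nek paralogs tested overlapped between the genotypes. Of the 13 paralogs, 5 lay wholly below and 2 wholly above the wildtype pair, against 23% and 22.9% of all genes. Whether Nek7 differed from Nek8 in its response was not tested.

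Levels of different genes were compared only per length, as normalized CPM per kilobase of merged exon. Ganab was highest, with a mean of 46.8 over the 5 mice (range 40.2 to 54.5), and Glis2 followed at 41.6, with ranges that overlapped. Pkd2 at 29.1 was separate from both neighbours in the order. Pkhd1 at 15.2 and Bicc1 at 12.5 overlapped, and so did Nek8 at 3.76 and Pkd1 at 3.09, the lowest. Ganab thus stood 15.2-fold above Pkd1 on this scale. With the longest transcript as the length, Pkd2 (56.6) passed Glis2 (50.2) and Bicc1 (17.1) passed Pkhd1 (16.8), so the order inside those pairs depends on the length chosen.

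**Figure D3:**
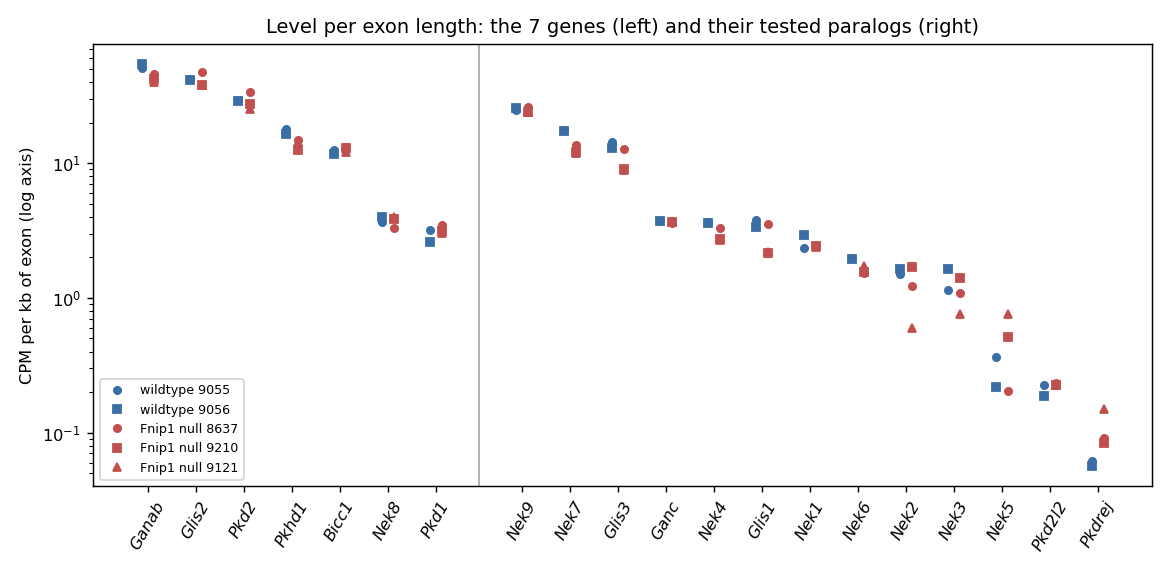
Normalized CPM per kb of merged exon (log axis) in each mouse for the 7 genes, ordered by their mean (left of the line), and for their 13 paralogs that passed the filter on low counts (right). Ganab and Glis2 are highest and Nek8 and Pkd1 lowest among the 7, with differences between genes far wider than those between mice.

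Ganab (ENSMUSG00000071650, chr19:8898071-8916672, plus strand, 25 exons) is shown with its promoter, and with those of Calr and Canx, because the genes of its pathway had log2 fold changes of the same sign. The first stretch is the GRCm38.p6 plus strand at chr19:8897931-8898056, with CCAAT in capitals. The others are the minus strand at chr8:84847015-84847153 and at chr11:50325740-50325878, with the endoplasmic reticulum stress element in capitals (CCAAT and CCACG with 9 bases between them), which in Calr reads on the other strand.
Ganab promoter: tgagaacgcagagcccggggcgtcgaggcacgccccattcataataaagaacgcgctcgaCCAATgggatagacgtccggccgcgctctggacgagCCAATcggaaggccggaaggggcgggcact
Calr promoter: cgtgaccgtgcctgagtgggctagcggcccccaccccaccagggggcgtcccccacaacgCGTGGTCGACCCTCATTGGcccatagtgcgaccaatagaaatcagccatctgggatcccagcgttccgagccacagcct
Canx promoter: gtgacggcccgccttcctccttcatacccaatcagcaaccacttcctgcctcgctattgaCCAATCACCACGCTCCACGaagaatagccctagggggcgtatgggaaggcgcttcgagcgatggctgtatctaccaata
Windows were searched on both strands. The stress element, which contains CCAAT, was in 39 of 32851 windows (0.119%) and, of 13 windows of the maturation genes described next, in those of Calr, Canx and Hspa5. It was in none of the 5 members' windows. CCAAT alone was in 37.4% of all windows, in Ganab alone among the members and in 6 of the 13. Both motifs were chosen after the values of these genes had been seen, and a match says nothing of whether a factor is bound.

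The level of Ganab was 252, 231 and 219 normalized CPM in null mice 8637, 9210 and 9121 against 277 and 297 in wildtype mice 9055 and 9056. Every null mouse lay below both wildtype mice. The mean of 234 ± 16.8 (SD, n = 3) in null mice was 0.816 times the 287 ± 14 (n = 2) of wildtype mice, with a 95% interval of 0.682 to 0.976. The log2 fold change of -0.29 (standard error 0.11) had an unadjusted p of 0.0317 and an adjusted p of 0.166 in the quasi-likelihood test, and did not pass. Ganab was the only member called in any of the alternatives run, and this was without mouse 8637, where the log2 fold change was -0.35 (adjusted p = 0.0463) and 19.9% of all genes were called (9.99% of all genes as lower in null mice). Without mouse 9121 it was -0.25 (adjusted p = 0.317). As for Pkhd1, the sign was negative in all 15 alternative fits, and with library size alone as the scale the value was -0.13, or -0.30 relative to the median of all genes.

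A further 14 genes that serve polycystin maturation in the endoplasmic reticulum were followed with Ganab: its regulatory subunit, chaperones, glycosylation enzymes and parts of the protein-conducting channel. None was called by the quasi-likelihood test, with 5 at an unadjusted p under 0.05 (25.1% of all genes). The exact and likelihood ratio tests each called 1 (9.82% and 10.6% of all genes) and DESeq2 called 2 (10.2%), and without mouse 8637 the quasi-likelihood test called 5 (19.9%). Without mouse 9121 the quasi-likelihood test called 0 of the 14, where it called 191 of 13980 genes in all. All 14 log2 fold changes were negative, from -0.56 to -0.06, with a median of -0.25 beside 0.0031 over all genes, 49.5% of which were negative. With library size alone as the scale, 11 were negative and 3 positive, with a median of -0.08 beside 0.17 over all genes. In 11 of the 14 all null mice lay below both wildtype mice, the ordering that 23% of all genes had, and the summed level was 2011 to 2304 normalized CPM in null and 2670 to 2867 in wildtype mice. Without mouse 9121 this ordering held for 11 (27.1% of all genes), and without mouse 8637 for 12 (34.3% of all genes). The 14 genes work in the same compartment, are not independent of each other and were chosen with earlier results of these data known, so the count describes these mice.

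Calr, the chaperone calreticulin that holds freshly trimmed glycoproteins, was the most separated of them. It was at 507, 524 and 511 normalized CPM in null mice 8637, 9210 and 9121 and at 705 and 815 in wildtype mice. The null mice lay within a few percent of each other and well below the wildtype pair. The log2 fold change of -0.56 (standard error 0.12) had an adjusted p of 0.0782 by quasi-likelihood, 0.0194 by the exact test, 0.0191 by the likelihood ratio test, 1.58e-04 by DESeq2 and 0.0274 by quasi-likelihood without mouse 8637. Its membrane-bound relative Canx, calnexin, was at -0.31 (adjusted p = 0.182, or 0.047 without mouse 8637). Without mouse 9121 neither passed the quasi-likelihood test, with an adjusted p of 0.112 for Calr and 0.344 for Canx.

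Dnajb11, a co-chaperone and itself a gene of atypical dominant polycystic kidney disease, was at 92.7, 91.0 and 80.6 normalized CPM in null mice 8637, 9210 and 9121 and at 109 and 126 in wildtype mice. The groups did not overlap, and its log2 fold change of -0.42 (standard error 0.11) had an adjusted p of 0.105 by quasi-likelihood, 0.0397 by the same test without mouse 8637 and 0.0417 by DESeq2. Its chaperone partner Hspa5, BiP, also stood at -0.42, with a wider standard error of 0.19 and an adjusted p of 0.223 (0.0238 without mouse 8637). For Hspa5 mouse 8637 (521 CPM) lay nearer to the wildtype mice (570 and 558) than to the other null mice (403 and 343). Without mouse 9121 the quasi-likelihood test gave -0.36 for Dnajb11 (adjusted p = 0.152) and -0.29 for Hspa5 (adjusted p = 0.38). Alg9, a mannosyltransferase that builds the sugar tree Ganab later trims, had -0.36 (adjusted p = 0.11), with the null mice between 22.1 and 22.6 CPM and the wildtype mice at 27.2 and 30.0.

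Prkcsh, the regulatory subunit of glucosidase II and the gene of dominant polycystic liver disease, is named here after its values were seen. It was at 137, 118 and 115 normalized CPM in null mice 8637, 9210 and 9121 and at 149 and 165.5 in wildtype mice, again without overlap (log2 fold change -0.35, adjusted p = 0.132, or 0.0256 without mouse 8637). Without mouse 9121 the log2 fold change of Prkcsh was -0.31 (quasi-likelihood test, adjusted p = 0.226). The ratio of Ganab to Prkcsh, the subunits of the same enzyme, was 1.85, 1.95 and 1.91 in the null mice in this order and 1.86 and 1.79 in wildtype mice. It varied by 1.09-fold over the 5 mice, against 1.35-fold for Ganab itself, 1.32-fold for the ratio of Ganab to Hspa5 and 1.37-fold for that of Ganab to Calr. This choice of ratios was also made after the values were seen.

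**Figure D4:**
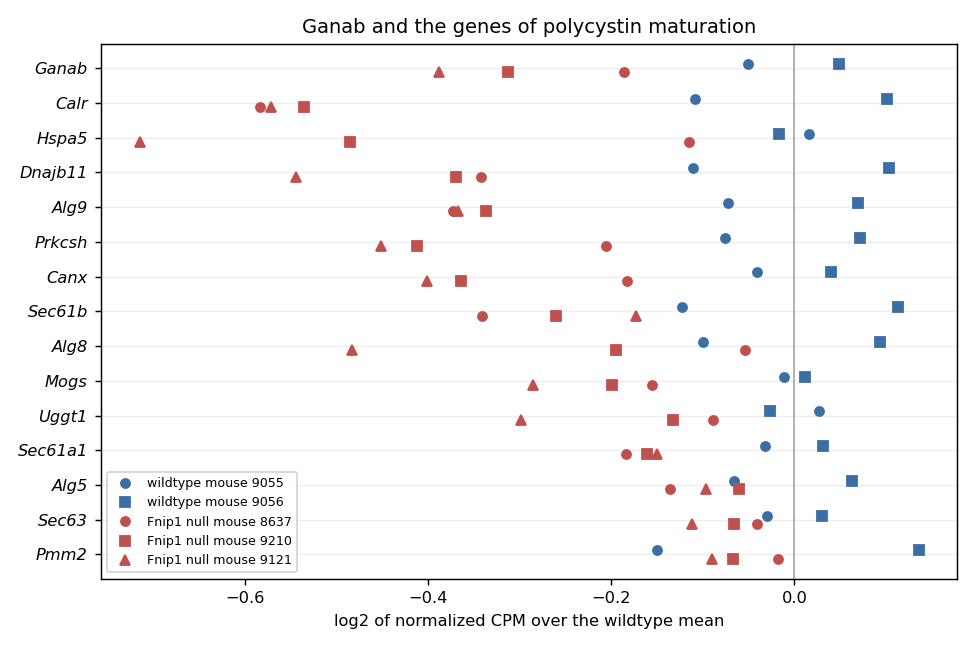
Log2 of normalized CPM over the wildtype mean in each mouse for Ganab and the 14 genes of polycystin maturation, 1 point per mouse, with 0 marking the wildtype mean. The Fnip1 null points of Ganab and of 11 of the 14 genes lie to the left of both wildtype points, and those of Alg8, Alg5 and Pmm2 overlap with wildtype.

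Of 23 other genes of cystic kidney disease, the quasi-likelihood test called 1 higher and 1 lower in null mice. Over all genes tested these shares were 0.555% and 0.18%. DESeq2 and the exact and likelihood ratio tests each called the same 2, where they called 10.2%, 9.82% and 10.6% of all genes. The one lower was Fnip1 itself (log2 fold change -1.48, adjusted p = 0.0313), the gene mutated in these mice. The one higher was Muc1, the transmembrane mucin of the distal nephron whose frameshift variants give dominant tubulointerstitial kidney disease. Muc1 rose from 10.7 and 11.8 normalized CPM in wildtype mice to 24.6, 36.4 and 33.7 in null mice 8637, 9210 and 9121. All null mice lay more than 2-fold above both wildtype mice, and the log2 fold change was 1.49 (quasi-likelihood test, adjusted p = 0.0401, standard error 0.19). The call was kept without mouse 8637 or 9121 and lost without 9055, 9056 or 9210 (adjusted p of 0.166 to 0.511), settings in which 0 genes in all were called. As given above, the summed markers of collecting duct principal and intercalated cells were also higher in null mice. Among them Avpr2 was lower and Slc26a4 overlapped between the genotypes. The part of these markers in the Muc1 value was not tested.

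The other 21 of these genes did not pass the test, and without mouse 8637 the number called of the 23 was 6, the mutated gene Fnip1 among them, against 19.9% of all genes. Without mouse 9121 it was 2, Fnip1 and Muc1, where 191 of 13980 genes in all were called. Arl3, a small GTPase that releases cargo in the cilium, had a log2 fold change of 0.30 (adjusted p = 0.132, or 0.0459 without mouse 8637). Fnip2, the paralog of Fnip1, stood at -0.20 (adjusted p = 0.369), and the 2 most abundant genes of the list, Umod, the main protein of urine, and Tns1, a focal adhesion protein, at 0.17 (adjusted p = 0.696) and -0.02 (adjusted p = 0.965). The median over the 23 was -0.05, or 0.11 when scaled by library size alone, where that of all genes was 0.17.

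Genes that are known to rise in cystic and injured kidneys were followed beside the 7. Of 10 such genes 8 were tested, and 1, Spp1, was called higher by the quasi-likelihood test (0.555% of all genes), while 3 were called by each of DESeq2, the exact test and the likelihood ratio test (10.2%, 9.82% and 10.6% of all genes). All 8 log2 fold changes were positive, with a median of 1.32 beside 0.0031 over all genes and -0.02 over the 7, and in 4 of the 8 every null mouse lay above both wildtype mice, against 22.9% of all genes. The rest overlapped. Havcr1, a marker of tubular injury, was at 11.1, 3.86 and 0.475 normalized CPM in null mice 8637, 9210 and 9121. In wildtype mice 9055 and 9056 it was at 1.99 and 1.43, above null mouse 9121. Spp1, osteopontin, a secreted phosphoprotein of injured tubules, rose from 794 and 813 normalized CPM in wildtype mice to 1906, 2774 and 2636 in null mice 8637, 9210 and 9121 (log2 fold change 1.6, adjusted p = 0.0403, standard error 0.21). Its call was lost without 9055, 9056 or 9210, with adjusted p of 0.175 to 0.527, and with the legacy setting of the quasi-likelihood fit turned off (adjusted p = 0.0506).

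Lcn2, a marker of tubular injury that is released into urine, had a log2 fold change of 2.39 (adjusted p = 0.0633) at low levels, 3.18, 5.35 and 2.80 normalized CPM in null mice 8637, 9210 and 9121 against 0.746 and 0.686 in wildtype mice. The null mice lay above without overlap, and the adjusted p was 8.36e-05 by the exact test and 0.0178 and 0.039 by quasi-likelihood without mouse 8637 or 9121. Vim, vimentin, of mesenchymal and dedifferentiated tubule cells, was at 46.9, 72.8 and 69.5 in the null mice in this order and at 33.4 and 27.0 in wildtype mice (log2 fold change 1.06, adjusted p = 0.0746, or 0.00617 without mouse 8637). Vcam1, an adhesion molecule, stood at 0.89 (adjusted p = 0.204, or 0.0373 without mouse 8637) with overlap between the genotypes. In the same libraries 4 of 4 fibroblast and pericyte markers had all null mice above wildtype, an ordering shared by 22.9% of all genes. None was called by the quasi-likelihood test (adjusted p of 0.105 to 0.188). Their summed levels were 159 to 245 CPM in null and 81.7 to 146 in wildtype mice. Their part in the Vim value was not tested. Without mouse 8637 the quasi-likelihood test called 5 of 9 genes of this list then tested, against 19.9% of all genes. Without mouse 9121 it called 2 of 9, Spp1 and Lcn2 but not Vim or Vcam1, and 191 of 13980 genes in all. Without mouse 9121 the non-overlapping genes were 5 of 8 (26.5% of all genes), and without mouse 8637 they were 7 of 8 (34.2% of all genes).

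**Figure D5:**
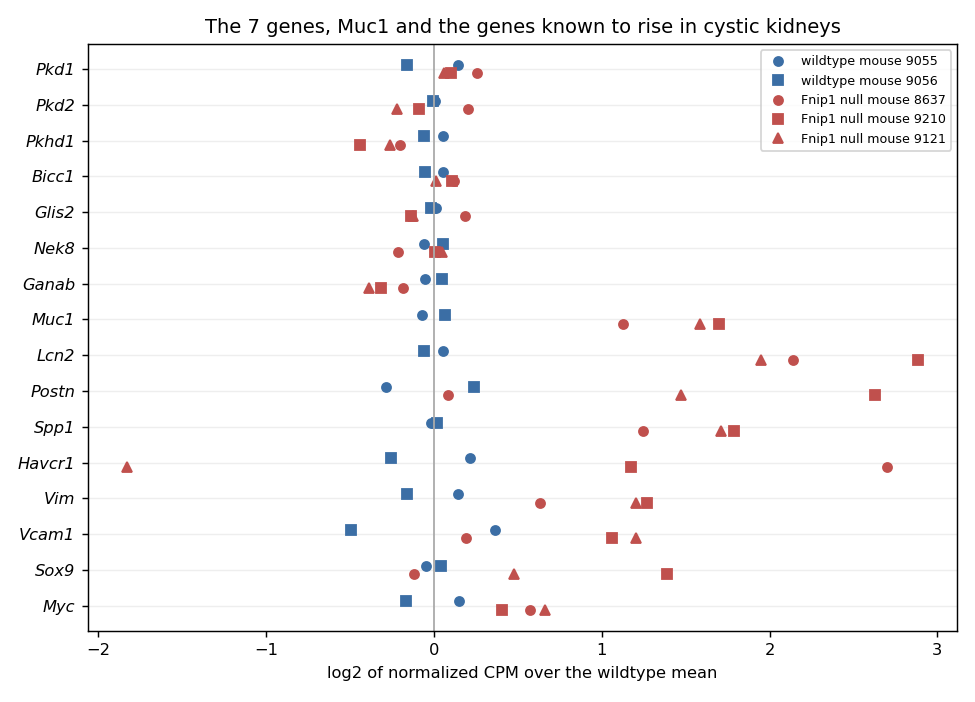
Log2 of normalized CPM over the wildtype mean in each mouse for the 7 cystic kidney disease genes, Muc1 and the 8 tested genes known to rise in cystic kidneys, 1 point per mouse. The points of the 7 genes stay within 0.5 of the wildtype mean, while those of Muc1, Lcn2 and Spp1 lie above 1 in every Fnip1 null mouse and Havcr1 and Postn scatter widely among the null mice.

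The 7 genes had different patterns over the 5 mice. Measured by the Euclidean distance between their centred log2 CPM values, Pkd2 and Glis2 were the nearest pair (0.108), followed by Pkd1 and Bicc1 (0.189) and by Pkhd1 and Ganab (0.234), and Pkd1 and Ganab were the farthest apart (0.565). Pkd2 and Glis2 shared a high value in mouse 8637, and Pkhd1 and Ganab their low values in all null mice. Of tested genes with a mean of at least 10 CPM, those nearest to each member were Hivep1 and Gab2 to Pkd1, Srek1 and Rbm26 to Pkd2, Eogt to Pkhd1, Tnpo2 and Dennd5a to Bicc1, Dennd4a and Tra2b to Glis2, and Chpf and Rbm22 to Nek8. Nearest to Ganab were Sqstm1 (distance 0.0191) and Fbxo22 (0.0347), and Sqstm1 was at 571, 528 and 502 normalized CPM in null mice 8637, 9210 and 9121 and at 639 and 679 in wildtype mice. Each distance rests on 5 points and is given as a description.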

How the data were processed

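RNA from kidney cortex of 5 mice was sequenced by the authors as paired-end TruSeq libraries. Per the labels, bcl2fastq 1.8.2, TopHat2 2.1.0 and HTSeq 0.6.1 were used with mm10, and the deposited values are raw counts per gene symbol, without normalization. The gene annotation and the strand setting are not given in the sources used here. Rows that name no gene (39.0% to 42.8% of a library, mostly reads that align more than once) were left out. A gene was tested unless more than 2 mice had fewer than 10 counts. Counts were scaled by TMM. The main test was the default quasi-likelihood test of edgeR 4.0.16, run under R 4.3.3 beside limma 3.58.1, and p-values were adjusted by Benjamini-Hochberg over 13874 genes. Calls are at an FDR of 5%. Standard errors come from the fold change and its statistic. The alternatives were the exact and likelihood ratio tests, DESeq2 1.42.0, 2 options of the fit, 3 other scalings, 2 other filters, the authors' added 2-fold limit and leaving out each mouse. Each test was first run on simulated counts with known changes. No 2 libraries agreed within sampling noise.

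Loci and exon lengths are from GENCODE M21 on GRCm38, matched by symbol, and promoters from RefSeq on GRCm38.p6. The members and gene lists were chosen with earlier results of these data known. From each list the text names the genes called, the 3 with the smallest p and the 3 with the highest mean CPM, and for each member the 2 genes nearest to it. Some genes that this rule names, and 1 of the gene lists, are not reported here. Prkcsh, Avpr2, Slc26a4, Slc34a1, Slc5a12, Slc5a2, Adipoq, Cidec, Havcr1 and the fold ratios are named outside this rule, after their values were seen.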

Additional observations from a re-analysis of the deposited data

How the results depend on the processing

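All 7 genes kept their side of the threshold in all alternatives, except Ganab without Fnip1 null mouse 8637, which passed at -0.35. With 1 mouse left out, members called ranged from 0 to 1, and all genes called from 0 (without 9055, 9056 or 9210) through 191 (without 9121) to 2807 (without 8637), against 102. Leaving out a wildtype mouse leaves 1, which is then assumed to vary like the null mice. All genes called were also 1362 by the exact test, 1472 by the likelihood ratio test, 1419 by DESeq2 (adjusted p not given for 1 gene) and 237 without the filter. The share of calls that were higher in null mice was 75.5%, against 86.7% scaled by library size alone, 63% by the exact test, 64.2% by the likelihood ratio test, 60.5% by DESeq2, and 49.7% and 63.9% without 8637 and 9121. The direction reversed for Pkd1 without 9056 (-0.0053). It did so for Pkd2, Glis2 and Nek8 with library size alone (0.13, 0.14 and 0.12) and upper quartile scaling (0.037, 0.043 and 0.019), which move the median of all genes by 0.16 and 0.064, and relative to that median all 3 stayed negative. It reversed without 9210 or 9121 for Pkd2 (0.0086 and 0.066) and Glis2 (0.039 and 0.033), and without 8637 or 9056 for Nek8 (0.030 and 0.0065). The cause of the reversals without a mouse was not tested. With 1 mouse left out the log2 fold change ranged from -0.0053 to 0.30 for Pkd1, -0.15 to 0.066 for Pkd2, -0.36 to -0.23 for Pkhd1, 0.027 to 0.13 for Bicc1, -0.13 to 0.039 for Glis2, -0.11 to 0.030 for Nek8 and -0.35 to -0.25 for Ganab. The fits of Muc1, Spp1, Fnip1, Calr, Dnajb11 and Prkcsh under these alternatives were read after their values were seen. No paired analysis was possible because the mouse numbers are not shared between the genotypes. With 3 against 2 mice, changes smaller than the intervals given were not detectable.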
